A study of Rattus norvegicus with 47 samples.

Results

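The 8 genes described here, Dbp, Tef, Hlf, Nfil3, Noct, Usp2, Bhlhe40 and Bhlhe41, carry the output of the circadian clock in liver. They were measured by 14 probe sets of 31099 on a single-colour Affymetrix rat array, which names 14217 genes through probe sets with 1 gene symbol. Members were taken by symbol, and each gene is given by its probe set with the highest mean over the 47 arrays. All 8 genes passed the filter on low signals in each of the 3 experiments. Every array held RNA of the liver of 1 female Sprague-Dawley rat of 8 weeks, and the labels call the arrays of a group biological repeats. In Expt 1, pups of dams on a vitamin A-deficient diet were fed from weaning 0 (deficient, n = 5), 0.4 (marginal, n = 7), 4 (adequate, n = 6) or 100 mg retinol per kg of diet (supplemented, n = 2). In Expt 2, rats raised without vitamin A in this way were given about 100 µg of all-trans-retinoic acid (RA, the hormone-like acid made from retinol) and killed 3 h (n = 3), 6 h (n = 3), 10 h (n = 4) or 16 h (n = 3) later. Their controls were deficient rats given vehicle and killed at 0 h (n = 3). In Expt 3, rats on stock diet lost their food after a dose of oil vehicle. At 16 h from then they were lightly anaesthetised with isoflurane and injected into an iliac vein with about 25 µg of RA bound to albumin (10 µg per 100 g of body weight). They were killed 30, 60 or 90 min later (n = 3 each), and the controls were vehicle-injected rats killed at 0 min (n = 2). All rats were kept on a light-dark cycle and killed with carbon dioxide, and the time of day of killing is not given in the labels.

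In mammals the clock is a loop in which CLOCK and BMAL1 bind E-box sequences and drive the genes of their own repressors, among them the period and cryptochrome genes, and this loop turns in liver cells as well as in the brain. Output genes pass the rhythm on: Dbp, Tef and Hlf encode PAR bZIP activators that bind D-box sequences of liver enzyme genes, and Nfil3 encodes a repressor that binds the same sequences. Bhlhe40 and Bhlhe41 encode E-box-binding repressors, Noct encodes nocturnin, a phosphatase related to mRNA deadenylases, and Usp2 encodes a ubiquitin-specific protease. Feeding time, glucocorticoids and the hour of day are known to set their levels in rodent liver.

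In the RefSeq annotation of GRCr8 the PAR bZIP genes lie at chr1:105312256-105317205 (Dbp), chr7:115197180-115221930 (Tef) and chr10:75651320-75708979 (Hlf), and Nfil3 at chr17:12432376-12447605. Bhlhe40 (chr4:143174450-143180150) and Bhlhe41 (chr4:180565003-180569415) share a chromosome, Noct lies at chr2:137422074-137442282 and Usp2 at chr8:53308264-53336800. RefSeq promoters of assembly GRCr8, matched by symbol, were at hand for 7 of the 8 genes and not for Hlf. The E-box CACGTG, which reads the same on both strands, lay within 250 bases before the start that the table gives in 3 of them, and 5.59% of 33469 promoters held it in that window. The 3 windows are shown because the E-box is the sequence through which the clock acts and which BHLHE40 and BHLHE41 themselves bind. Capitals mark it.
Tef (GRCr8 chr7:115206577-115206826, plus strand): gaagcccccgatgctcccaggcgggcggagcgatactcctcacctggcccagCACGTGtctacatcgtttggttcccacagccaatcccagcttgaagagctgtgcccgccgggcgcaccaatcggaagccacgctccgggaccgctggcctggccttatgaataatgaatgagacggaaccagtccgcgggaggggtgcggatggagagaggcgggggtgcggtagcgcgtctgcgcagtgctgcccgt
Bhlhe40 (GRCr8 chr4:143174200-143174449, plus strand): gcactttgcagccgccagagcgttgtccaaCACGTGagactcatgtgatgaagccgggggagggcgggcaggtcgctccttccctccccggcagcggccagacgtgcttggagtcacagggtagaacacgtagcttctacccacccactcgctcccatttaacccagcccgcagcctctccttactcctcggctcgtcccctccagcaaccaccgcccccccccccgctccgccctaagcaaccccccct
Bhlhe41 (GRCr8 chr4:180569356-180569605, minus strand): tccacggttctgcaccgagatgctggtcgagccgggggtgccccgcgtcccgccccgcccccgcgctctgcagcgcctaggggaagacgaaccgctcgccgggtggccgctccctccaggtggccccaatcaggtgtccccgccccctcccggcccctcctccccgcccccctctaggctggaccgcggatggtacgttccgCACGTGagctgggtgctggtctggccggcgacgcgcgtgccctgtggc
For Tef and Bhlhe41 that start lies inside the span of the gene in the annotation. The first base of the motif lay 198 bases before the start in Tef, 220 in Bhlhe40 and 48 in Bhlhe41. The D-box, searched as TTACGTAA and TTATGTAA on both strands, was in 0 of the 7 windows and in 0.932% of all promoters. The nuclear receptor half-site AGGTCA, on either strand, was in the window of Usp2 alone and in 14.1% of all promoters. A pair of such half-sites spaced by 5 bases is a form that retinoic acid receptors bind, and other spacings were not searched. The pair was in 0 of the 7 windows and in 0.00896% of all promoters. These are matches of letters in these windows only.

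Values are log2 signals with the median of each array at 0, so a difference of 1 is 2-fold. All 7 hepatocyte markers measured were above the 40th percentile on each of the 47 arrays, and 0 of 6 pancreatic acinar markers were. In the Expt 2 vehicle rats, however, 3 of the 6 acinar markers were above it on every array. Kupffer cell markers (8 of 8) were also above it on each array, so the tissue was mixed, and fewer cells of a type and less RNA per cell cannot be told apart. The array median lay 10 to 69.8 times above the lowest signal of the array. Arrays 1 and 2 of the 16 h group stood apart, with a median correlation with the other arrays of the experiment of 0.664 and 0.717. As a check of the treatment, Cyp26a1, which degrades RA, rose by 6.30 ± 0.94 at 3 h in Expt 2 (limma, adjusted p = 0.0022). It rose by 5.43 ± 0.56 at 60 min in Expt 3 (adjusted p = 0.000817). Of 5 RA-responsive genes checked (Cyp26a1, Rarb, Dhrs3, Lrat and Cyp2c22), 4 were called higher at 3 h in Expt 2. In Expt 3, 0 were called at 30 min, 2 at 60 min and 4 at 90 min. At 30 min Cyp26a1 changed by 3.05 ± 0.56 (adjusted p = 0.0693).

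In the injection experiment 5 of the 8 genes were called at 1 or more times. In the 2 vehicle rats Noct, Bhlhe40, Dbp and Usp2 were low, and within 30 to 90 min of the RA injection each of the 4 was higher, while Nfil3 was lower at 60 and 90 min. Of the 8 genes, limma called 2 at 30 min (adjusted p under 0.05 over all 22763 probe sets tested, against 0.0879% of those probe sets), 5 at 60 min (against 0.387%) and 3 at 90 min (against 0.505%). The median change over the 8 genes was 1.13, 1.71 and 0.73 at 30, 60 and 90 min, against -0.103, -0.0983 and -0.109 over all probe sets. The 3 comparisons share the 2 vehicle arrays. Vehicle rats were killed at 0 min, so RA, the injection with its anaesthesia, and the time since then cannot be told apart.

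Noct had the largest fitted change of the 8 genes in this experiment. Its log2 signal was 0.39 and 1.35 in the vehicle rats, 4.60, 4.16 and 4.48 at 30 min, 2.96, 4.74 and 4.01 at 60 min, and 2.98, 2.92 and 2.82 at 90 min. Every injected rat was above both vehicle rats, and the 90 min rats were lower than the 30 min rats with no overlap. The change from vehicle was 3.54 ± 0.38 at 30 min (SE, 11.6-fold, adjusted p = 0.00244), 3.03 ± 0.38 at 60 min (8.17-fold, adjusted p = 0.00266) and 2.04 ± 0.38 at 90 min (4.11-fold, adjusted p = 0.0272). The 30 min call was kept whichever 1 array was left out. The 60 min call was lost without vehicle array 1 (2.55, adjusted p = 0.0505), and the 90 min call without that array (1.56, adjusted p = 0.311) or without 90 min array 1, 2 or 3 (adjusted p = 0.0732, 0.0771 and 0.0666).

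Bhlhe40, the E-box repressor, rose at 30 and 60 min. Its signal was -0.44 and -0.62 in the vehicle rats, 1.50, 1.37 and 1.43 at 30 min, 1.25, 1.11 and 1.76 at 60 min, and 0.18, 0.30 and 0.74 at 90 min. The vehicle rats were lowest, the 90 min rats lay between, and the 30 and 60 min rats overlapped each other. Bhlhe40 was above the filter level (the 40th percentile of the array) on 1 of the 2 vehicle arrays, so the size of its rise is uncertain. The change was 1.96 ± 0.27 at 30 min (3.9-fold, adjusted p = 0.008) and 1.90 ± 0.27 at 60 min (3.74-fold, adjusted p = 0.00776). At 90 min it was 0.93 and did not pass (adjusted p = 0.203). Without vehicle array 1 or 2 neither call held (adjusted p = 0.0523 and 0.0629 at 30 min, 0.0505 and 0.0588 at 60 min), and the 30 min call was also lost without 30 min array 1 (0.0533). In these fits with 1 vehicle array, that array is assumed to vary like the other groups.

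The partner repressor Bhlhe41 spread from -4.17 to -0.02 over the 11 rats. Its residual SD of 1.76 lay at the 99.7th percentile of all probe sets, where the median was 0.35. Its changes of 1.76, 1.51 and 0.49 at 30, 60 and 90 min had an SE of 1.42 and did not pass (adjusted p = 0.771, 0.778 and 0.936). It was above the filter level, the 40th percentile of the array, on 5 of these 11 arrays and on 0 of the 2 vehicle arrays.

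**Figure D1:**
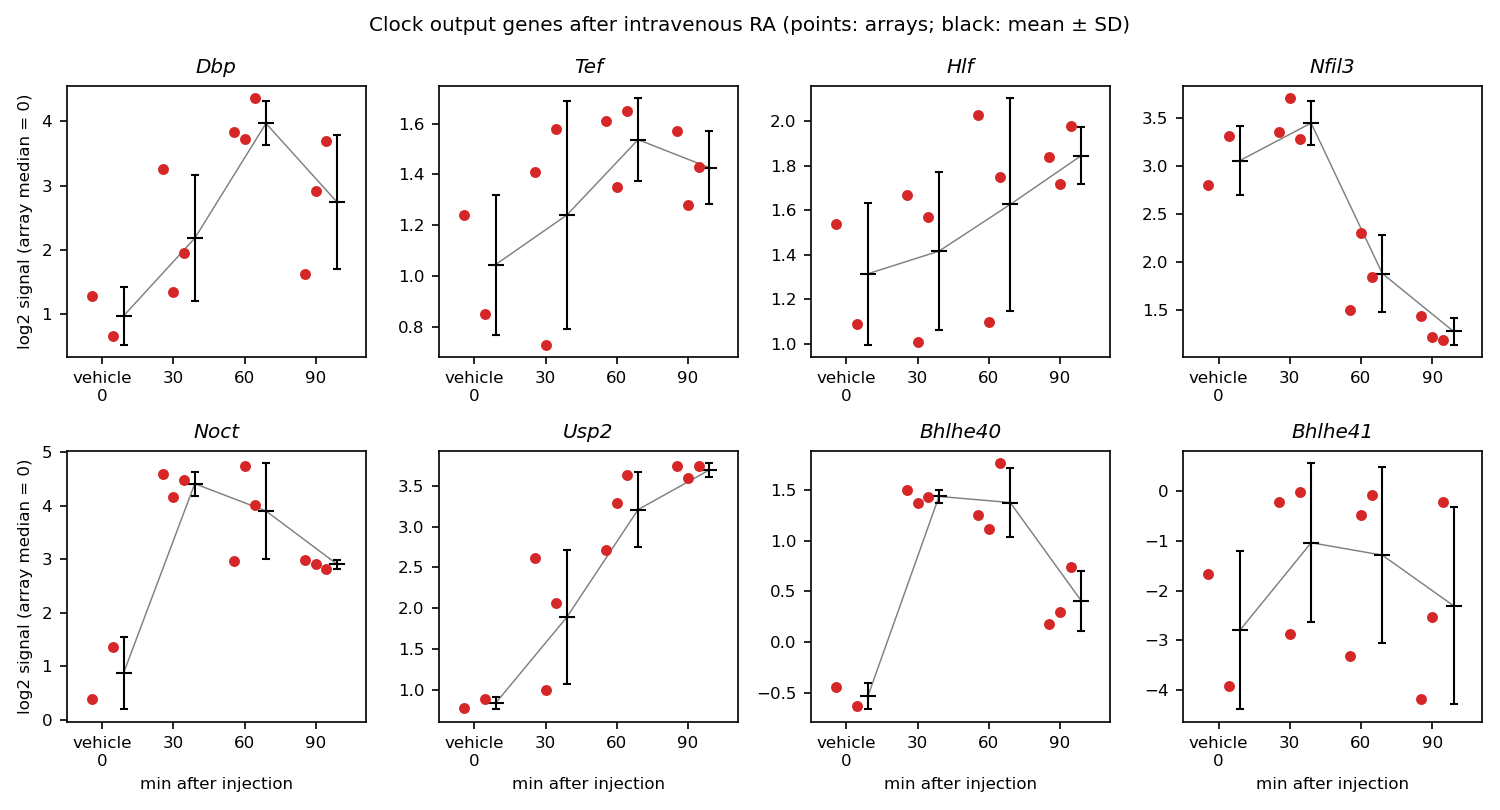
Log2 signal (array median at 0) of the 8 clock output genes against minutes after injection in Expt 3. Points are arrays, black bars are the mean and SD, and vehicle rats stand at 0 min. Noct and Bhlhe40 are highest at 30 and 60 min, Dbp at 60 min and Usp2 at 90 min, while Nfil3 drops between 30 and 60 min.

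Among the PAR bZIP activators, Dbp alone was called. Dbp read 1.29 and 0.66 in the vehicle rats, 3.26, 1.34 and 1.95 at 30 min, 3.83, 3.72 and 4.36 at 60 min, and 1.62, 2.92 and 3.69 at 90 min. All injected rats were above both vehicle rats, and the 60 min rats were above all others. The change was 2.99 ± 0.53 at 60 min (7.96-fold, adjusted p = 0.0233), while 1.21 at 30 min (adjusted p = 0.535) and 1.77 at 90 min (adjusted p = 0.214) did not pass. The 60 min call was lost without any 1 of the 2 vehicle arrays (2.68 to 3.31, adjusted p = 0.097 and 0.201) or the 3 arrays at 60 min (adjusted p = 0.0505, 0.0549 and 0.102). Tef changed by 0.19, 0.49 and 0.38 at 30, 60 and 90 min (adjusted p = 0.881, 0.562 and 0.645). Hlf changed by 0.10, 0.31 and 0.53 (adjusted p = 0.958, 0.762 and 0.533). Both overlapped vehicle at 30 min. Each rat was above both vehicle rats at 60 and 90 min for Tef, and at 90 min for Hlf, though these changes did not pass. The share of all probe sets that separated in this way was not counted.

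Nfil3, the repressor at the same D-box, went the other way. Its signal was 2.80 and 3.31 in the vehicle rats, 3.35, 3.70 and 3.28 at 30 min, 1.50, 2.30 and 1.85 at 60 min, and 1.44, 1.22 and 1.19 at 90 min. The 30 min rats overlapped vehicle, and each rat at 60 and 90 min was below all vehicle and 30 min rats. The change from vehicle was -1.17 ± 0.23 at 60 min (2.25-fold lower, adjusted p = 0.0436) and -1.77 ± 0.23 at 90 min (3.41-fold lower, adjusted p = 0.00244). At 60 min against 30 min it fell by 1.56 ± 0.21 (2.95-fold, adjusted p = 0.00729), the 1 call among the 8 genes where 0.0615% of probe sets were called. This comparison does not use the vehicle rats. It did not hold without 30 min array 2 (-1.43, adjusted p = 0.0617). The 90 min call was kept whichever array was left out (highest adjusted p = 0.0481). The 60 min call was lost in 9 of 11 such fits, all but those without 60 min array 2 and 90 min array 1, with adjusted p up to 0.354 without vehicle array 2 (-0.92). It was also lost with quantile normalisation (adjusted p = 0.0705) and with no filter (0.0506).

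Usp2 rose at 60 and 90 min. Its signal was 0.78 and 0.89 in the vehicle rats, 2.61, 1.00 and 2.06 at 30 min, 2.71, 3.29 and 3.63 at 60 min, and 3.74, 3.60 and 3.75 at 90 min. All injected rats were above both vehicle rats, and 2 of the 3 rats at 90 min were above all rats at earlier times. The change was 1.05 at 30 min (adjusted p = 0.375), 2.37 ± 0.35 at 60 min (5.18-fold, adjusted p = 0.00795) and 2.86 ± 0.35 at 90 min (7.26-fold, adjusted p = 0.0013). The 60 min call was lost without vehicle array 1 or 2 (adjusted p = 0.0855 and 0.0561), and the 90 min call was kept in such fits. The second Usp2 probe set changed by 0.90, 2.44 and 3.16 at 30, 60 and 90 min but was noisier (SE 1.07, adjusted p = 0.862, 0.467 and 0.289). With both probe sets averaged, neither the 60 min (2.40, adjusted p = 0.252) nor the 90 min call (3.01, adjusted p = 0.103) held.

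At 90 min against 60 min limma called 0 of the 8 genes, where 0.0966% of probe sets were called and 4 genes had an unadjusted p under 0.05. Any difference among the 4 groups was called for Nfil3, Noct, Usp2 and Bhlhe40 (4 of 8, adjusted p of the F test 0.000374, 0.00112, 0.00261 and 0.00688), against 0.549% of probe sets. Dbp had 0.0673 there. With limma's variance prior fitted without a trend on signal, none of the calls at 30, 60 or 90 min held and 1 F-test call remained.

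Among 12 core clock genes tested in Expt 3, 0 were called at 30 min. At 60 min the period genes Per1 (1.63 ± 0.23, adjusted p = 0.00719) and Per2 (2.24 ± 0.39, adjusted p = 0.0233) were higher and Npas2, a partner of BMAL1, was lower (-3.36 ± 0.61, adjusted p = 0.026). At 90 min Per2 alone was called (2.34 ± 0.39, adjusted p = 0.0141). Of 7 PAR bZIP target genes and 11 other rhythmic liver genes, 0 were called at any of the 3 times. Of 8 immediate early genes, which answer stimulation within minutes, Fos (2.65 ± 0.34, adjusted p = 0.00547) and Egr1 (1.44 ± 0.16, adjusted p = 0.00244) were higher at 30 min, and Egr1 again at 90 min (1.02, adjusted p = 0.00788). Of 6 glucocorticoid-induced genes, Fkbp5 alone was called at 90 min (higher by 1.49 ± 0.24, adjusted p = 0.0114), and 0 were called at 30 or 60 min. The part of stimulation or stress in the clock output changes was not tested.

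In Expt 2, over hours, the pairwise calls among the 8 genes all involved 16 h. Dbp was 14.1-fold higher at 16 h than at 10 h, and Nfil3 was 4.7-fold lower over the same step. At 10 h Dbp was above the filter level on 2 of the 4 arrays, so the size of its rise is uncertain. Limma called 0 of the 8 genes against vehicle at 3 h (4 at an unadjusted p under 0.05, where 0.0762% of 28869 probe sets were called), 0 at 6 h (3 unadjusted, against 0.201%) and 0 at 10 h (2 unadjusted, against 0.488%). It called 1 at 16 h, against 6.11%, and 2 at 16 h against 10 h, against 0.807%. The F test over the 5 groups called Nfil3, Dbp and Usp2 (3 of 8, adjusted p = 0.00211, 0.00219 and 0.0209), against 4.79%. Hours after the dose and clock time at killing cannot be told apart here, and the 4 comparisons with vehicle share its 3 arrays.

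The Dbp means alternated over the times, low at 3 and 10 h and high at 6 and 16 h. Its signal was 1.42, 0.06 and 2.92 in the vehicle rats, -1.28, -0.03 and -0.13 at 3 h, 2.11, 0.88 and 2.44 at 6 h, 0.65, -2.57, 0.46 and -1.71 at 10 h, and 2.62, 2.90 and 3.55 at 16 h. The vehicle rats spread so widely that they overlapped the 6, 10 and 16 h rats, while the 3 h rats lay below them, the 6 h rats above the 3 and 10 h rats, and the 16 h rats above those at 3, 6 and 10 h. Against vehicle, the changes of -1.94, 0.35, -2.26 and 1.56 at 3, 6, 10 and 16 h did not pass (adjusted p = 1, 1, 0.158 and 0.195). At 16 h against 10 h Dbp rose by 3.82 ± 0.67 (adjusted p = 0.00379), and the call was kept with any 1 array left out (3.22 to 4.30, highest adjusted p = 0.0212). Without both arrays that stood apart, it was 4.34 with an adjusted p of 0.058. Only 1 rat is then left at 16 h, assumed to vary like the other groups.

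The Nfil3 means alternated the opposite way, high at 3 and 10 h and low at 6 and 16 h. Its signal was 2.90, 3.73 and 1.79 in the vehicle rats, 3.37, 3.18 and 2.86 at 3 h, 1.56, 1.54 and 1.91 at 6 h, 3.24, 2.80, 2.58 and 3.01 at 10 h, and -0.31, 0.22 and 2.10 at 16 h. The 6 h rats were below all rats at 3 and 10 h, and the 3 rats at 16 h were below all rats at 3 and 10 h but overlapped vehicle. At 16 h Nfil3 fell by 2.14 ± 0.45 against vehicle (4.4-fold, adjusted p = 0.0071) and by 2.23 ± 0.42 against 10 h (adjusted p = 0.00642). The 2 lowest rats at 16 h were the arrays that stood apart. With the 1 rat left at 16 h without them, assumed to vary like the other groups, the changes were -0.71 (adjusted p = 0.739) and -0.80 (adjusted p = 0.798). The call against vehicle was also lost without vehicle array 2 (-1.67, adjusted p = 0.0873), and that against 10 h without 16 h array 1 (-1.74, adjusted p = 0.0528). The median over all probe sets was -0.392 at 16 h against vehicle and -0.211 at 16 h against 10 h.

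**Figure D2:**
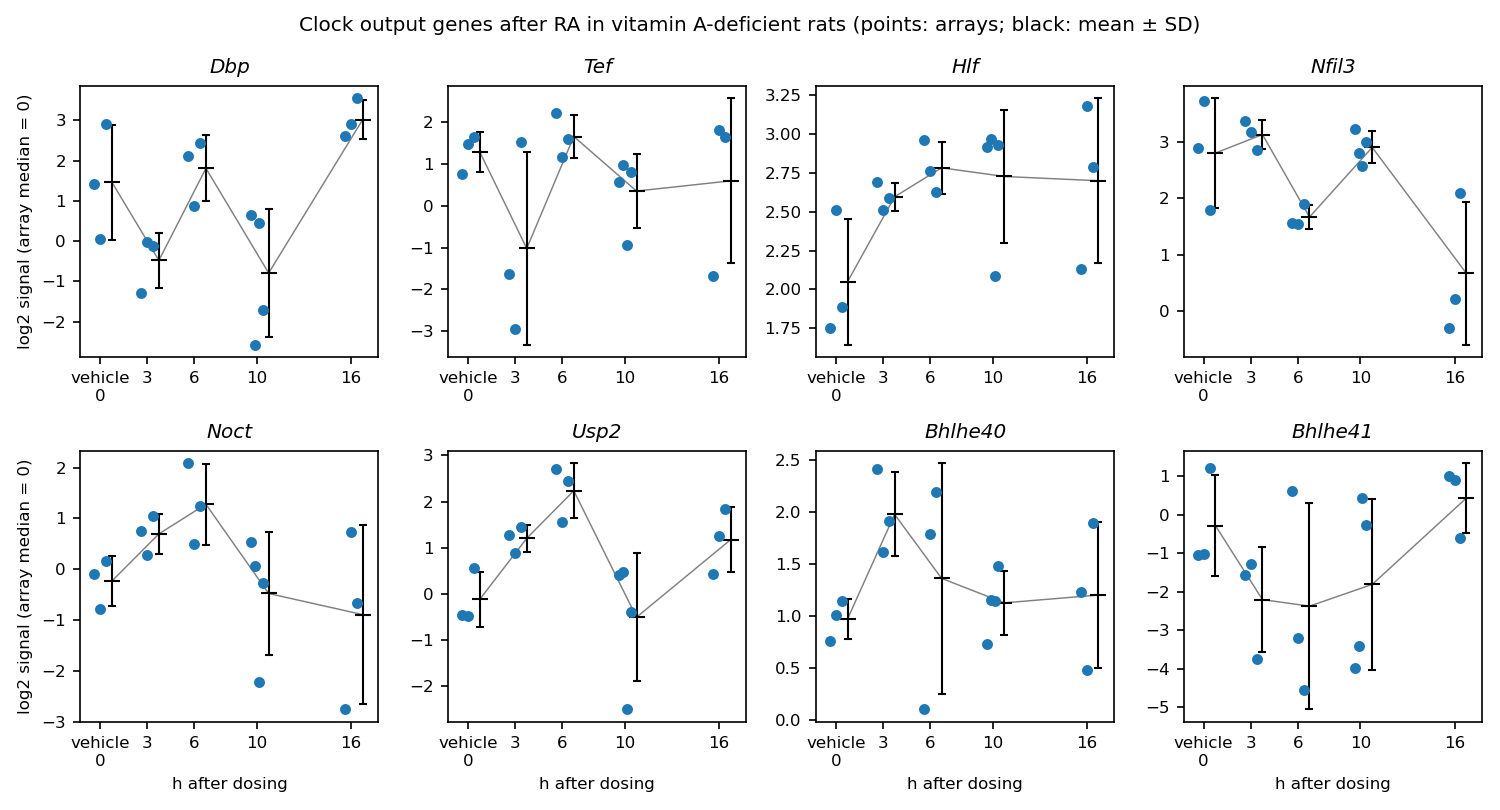
Log2 signal (array median at 0) of the 8 clock output genes against hours after RA in vitamin A-deficient rats (Expt 2). Points are arrays, black bars are the mean and SD, and vehicle rats stand at 0 h. Dbp is high at 6 and 16 h and Nfil3 at 3 and 10 h, and 2 of the 3 rats at 16 h hold the lowest Nfil3 values.

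Usp2 read -0.45, -0.47 and 0.56 in the vehicle rats, 1.27, 0.89 and 1.45 at 3 h, 2.70, 1.56 and 2.44 at 6 h, 0.41, 0.47, -2.50 and -0.40 at 10 h, and 0.44, 1.25 and 1.83 at 16 h. Every rat at 3 and 6 h was above all vehicle and 10 h rats. The change was 2.36 ± 0.63 at 6 h against vehicle (adjusted p = 0.202) and -2.74 ± 0.59 at 10 h against 6 h (adjusted p = 0.0511), neither of which passed. The second passed in 6 of 16 fits that left out 1 array (without 10 h array 1 or 2, 16 h array 1 or 3, or vehicle array 2 or 3, adjusted p = 0.0258 to 0.049). The first passed without 10 h array 3 (adjusted p = 0.0402). At 10 h against 6 h limma called 0 of the 8 genes (4 unadjusted, against 0.135% of probe sets), and at 6 h against 3 h it called 0 (3 unadjusted, against 0.0208%).

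The other 5 genes were not called in Expt 2. Noct averaged -0.23 in the vehicle rats and 0.69, 1.28, -0.48 and -0.89 at 3, 6, 10 and 16 h. Bhlhe40 averaged 0.97 in the vehicle rats and 1.98, 1.36, 1.12 and 1.20 at these times. Tef averaged 1.29 in the vehicle rats and -1.02, 1.66, 0.36 and 0.60, and Bhlhe41 averaged -0.29 and then -2.21, -2.38, -1.81 and 0.43, both with wide spreads within groups. The second Tef probe set differed from the first. It read -0.34, -1.57 and 1.10 in the vehicle rats and -0.03, -0.35 and 0.38 at 3 h, within the vehicle range. At 16 h it read 1.43, 1.36 and 0.87. Hlf averaged 2.05 in the vehicle rats and 2.60, 2.78, 2.73 and 2.70 after RA. Its second probe set disagreed over the test: it rose by 1.56 ± 0.33 at 10 h (adjusted p = 0.0206) and 1.65 ± 0.35 at 16 h (adjusted p = 0.00777), with every rat above vehicle, where the first changed by 0.68 and 0.65 and did not pass.

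Other clock genes moved over the same steps. Of 13 core clock genes, 0 were higher and 4 lower at 16 h against vehicle, where the list's median was -0.83. The 4 were Clock (-1.39, adjusted p = 0.0171), Bmal1 (-2.03, adjusted p = 0.0311), Rora (-2.32, adjusted p = 0.0337) and Npas2 (-2.06, adjusted p = 0.0368). Bmal1 spread from -2.33 to 1.19 at 16 h, Rora from -2.83 to 0.39, Npas2 from -2.59 to 1.05 and Clock from 0.41 to 1.98. Calls at 16 h outside the clock output genes were not checked without the arrays that stood apart. At 16 h against 10 h the REV-ERB repressor genes Nr1d2 (2.03 ± 0.35, adjusted p = 0.00368) and Nr1d1 (3.71 ± 0.77, adjusted p = 0.0153) were higher, and Cry1 (-2.04, adjusted p = 0.0147) and Clock (-1.47, adjusted p = 0.02) were lower. At 10 h against 6 h Nr1d2 was lower (-2.00 ± 0.35, adjusted p = 0.00715). Cyp7a1, the rate-limiting enzyme of bile acid synthesis and a rhythmic liver gene, was lower at 10 h against vehicle (-3.77, adjusted p = 0.0246) and higher at 16 h against 10 h (6.02 ± 0.82, adjusted p = 0.000141). Of 6 glucocorticoid-induced genes, Klf9 was lower at 10 h (-1.07) and 16 h (-0.91) against vehicle, and Tsc22d3 at 16 h (-1.12). The others were not called. Of 7 PAR bZIP target genes, Cyp2c7 was higher at 16 h against vehicle (1.41, adjusted p = 0.00561), and Cyp2a1 (-1.10, adjusted p = 0.0248) and Cyp2c11 (-1.55, adjusted p = 0.0413) were lower. Of 11 other rhythmic genes, Nampt (-1.83), Cdkn1a (-2.17) and Insig2 (-1.20) were lower at 16 h against vehicle (adjusted p = 0.000389, 0.0127 and 0.0346). Of 9 immediate early genes, 0 were called in any of these comparisons. Markers of several cell types moved at 16 h against vehicle. The level of a list is the log2 of its summed linear signals on an array. Of 8 Kupffer markers 3 were lower (median -0.74, level 6.09 to 6.65 at 16 h against 6.96 to 7.28 in vehicle rats). Of 7 stellate markers Reln and Col3a1 (-1.36) were lower and Rgs5 (2.93) higher (median -1, level 4.37 to 5.11 at 16 h against 5.42 to 5.97). Of 5 endothelial markers Kdr was lower (-0.97, median -0.89, level 5.29 to 5.96 at 16 h against 5.57 to 6.44). Of 7 hepatocyte markers Alb was higher (0.94) and Apob lower (-0.79). Of 6 pancreatic acinar markers Cela1 was lower (-2.72, median -0.06, level 2.15 to 2.74 at 16 h against 3.01 to 3.44). Their part in the clock output values was not tested.

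In Expt 1, 1 of the 8 genes passed the test between diets. Bhlhe40 was lower in deficient than in adequate livers, 1 call of 8 where 1.08% of 27595 probe sets were called. Its signal was 1.83, 1.35, 2.08, 0.94 and 0.59 in the deficient rats 1 to 5, and 1.48 at the lowest, 2.25 at the median and 2.96 at the highest in the adequate rats. The 2 groups overlapped: 2 deficient rats were above the lowest adequate rat. The marginal rats ran from 2.26 over a median of 2.75 to 3.04, and the 2 supplemented rats read 2.15 and 2.48. The fitted change in deficient rats was -1.01 ± 0.25 (2.02-fold lower, adjusted p = 0.0328), and the F test over the 4 diets called Bhlhe40 as well (adjusted p = 0.00672, 1 of 8, against 0.91%).

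The Bhlhe40 call rested on several arrays and settings. The arrays came in 2 runs of database identifiers, 12 in the first and 8 in the second, and the fit held the run as a covariate. The identifiers had gaps within both runs, and that of deficient array 5 lay apart from the others of the first run. The change was -1.43 ± 0.33 within the first run and -0.66 ± 0.35 within the second, and fits of each run alone gave adjusted p = 0.1 and 0.264. The difference between the runs' changes was 0.76 (adjusted p = 0.534). The call was lost without adequate array 2, 4 or 6 or deficient array 2 or 5 (-0.84 to -0.98, adjusted p up to 0.201), and without deficient arrays 1, 2 and 5 and adequate array 5 together (-0.94, adjusted p = 0.263). These 4 had the lowest median correlations with the other arrays of the experiment, 0.775 to 0.805, and 3 of them were deficient.

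The other genes had negative fitted changes in deficient livers without passing. Within the runs, Tef, Hlf, Noct and Usp2 were negative in both. Dbp (0.08 ± 0.65) and Nfil3 (0.04 ± 0.41) were not negative in the first run, nor Bhlhe41 (0.73 ± 1.00) in the second. Noct changed by -1.60 ± 0.43 (adjusted p = 0.0607) and passed without adequate array 5, deficient array 3 or 4, or marginal array 6 (adjusted p = 0.0114 to 0.0497). Over all fits with 1 array left out, its change ranged from -1.92 to -0.86, with adjusted p up to 0.389. Nfil3 changed by -0.82 (adjusted p = 0.272), Usp2 by -0.68, Bhlhe41 by -0.65, Tef by -0.60 and Dbp by -0.35. Hlf changed by -0.71 (adjusted p = 0.279), whereas its second probe set fell by 1.10 ± 0.28 (adjusted p = 0.045). Over the 8 genes the median change was -0.70, against -0.111 over all probe sets. Limma called 0 of 8 in marginal against adequate livers (2 unadjusted, against 0%), 0 in supplemented against adequate livers (1 unadjusted, against 0.0109%) and 0 in supplemented against deficient livers (3 unadjusted, against 0.42%). In the last comparison Bhlhe40 changed by 1.19 ± 0.35 (adjusted p = 0.185) and Usp2 by 2.48 (adjusted p = 0.129). Of 13 core clock genes, 0 were called in any diet comparison. Of the PAR bZIP targets, Alas1 (-0.86, adjusted p = 0.0249), the first enzyme of haem synthesis, and Cyp2c7 (-1.38, adjusted p = 0.00293) were lower in deficient livers. Of 6 pancreatic acinar markers, Cpa1 was lower in deficient against adequate livers (-2.83, adjusted p = 0.000809). Cela1 was lower in supplemented against deficient livers (-3.11, adjusted p = 0.0228). The part of these markers in the clock output values was not tested.

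The 2 runs of identifiers differed in more of these genes than the diets did. The first run held 2 deficient, 4 marginal, 4 adequate and 2 supplemented rats, the second 3 deficient, 3 marginal and 2 adequate rats, and the labels say nothing on how the runs differed. With diet in the fit, limma called 5 of the 8 genes between the runs, 4 higher and 1 lower in the second, against a background of 13.6% (3.44% up, 10.2% down in that run). The median change over the 8 genes was 1.87, against -0.0471 over all probe sets. Bhlhe41 entered this test through the second run alone, being above the filter level on 8 of 8 of its arrays and on 0 of the 12 of the first run. Without it, 4 of 7 genes were called and the median was 0.65.

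Usp2 was above the filter level on 8 of 8 arrays of the second run and on 3 of 12 of the first, so the size of its difference is uncertain. Its signal was 1.46 at the lowest, 2.42 at the median and 2.93 at the highest in the second run, against -3.64, -1.06 and 0.60 in the first, a fitted difference of 4.16 ± 0.38 (adjusted p = 4.64e-09). Noct ran from 2.39 over a median of 4.02 to 4.20 in the second run, against -3.30, 0.24 and 1.28 in the first (3.81 ± 0.33, 14.1-fold, adjusted p = 3.45e-09). For both genes all 8 arrays of the second run were above all 12 of the first. Bhlhe41 ran from -0.04 over 0.92 to 1.44 in the second run, against -4.98, -2.62 and -0.62 in the first (fitted difference 3.21 ± 0.55, adjusted p = 9.77e-05), where every array was below the filter level and the size is not exact. Dbp ran from 2.61 over 3.38 to 4.38 in the second run, against -1.50, 0.22 and 2.17 in the first (3.08 ± 0.36, 8.45-fold, adjusted p = 4.85e-07). These 2 genes did not overlap between the runs either. How many of all probe sets showed no overlap between the runs was not counted. The second Usp2 probe set was higher by 2.40 ± 0.46 (adjusted p = 0.000403), again with no overlap.

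**Figure D3:**
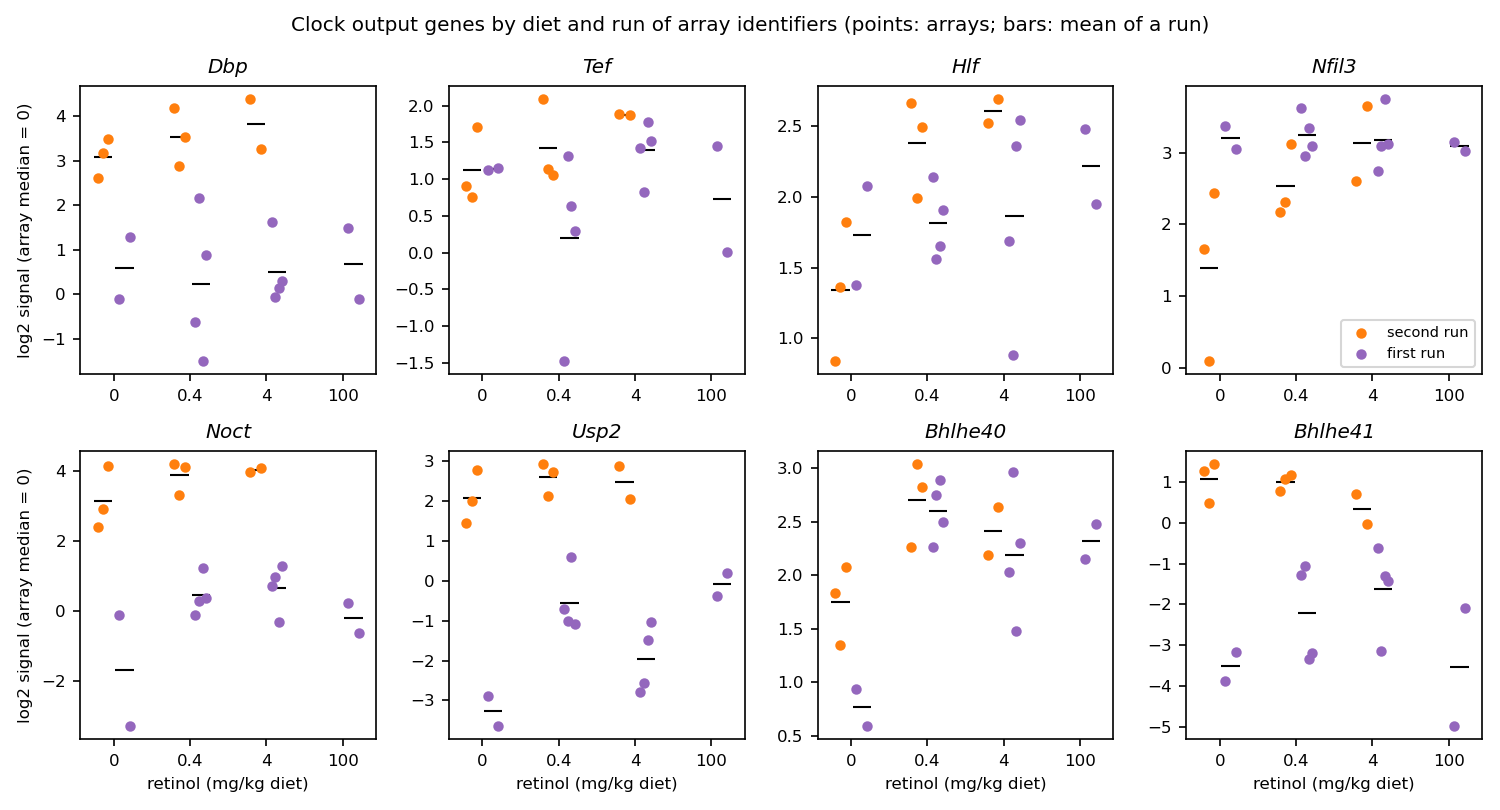
Log2 signal (array median at 0) of the 8 clock output genes by retinol in the diet (Expt 1, diets evenly spaced). Points are arrays coloured by run of identifiers, and bars are the mean of a run. In Dbp, Noct, Usp2 and Bhlhe41 the 8 arrays of the second run lie above the 12 of the first, whatever the diet, and Bhlhe40 shows the lower deficient group.

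Nfil3 again differed the other way. It ran from 0.09 over 2.37 to 3.65 in the second run, against 2.74, 3.11 and 3.75 in the first, a difference of -0.82 ± 0.25 (1.76-fold lower, adjusted p = 0.0271) with overlapping runs. The 2 lowest arrays of the second run were deficient rats. The call was lost without deficient array 4 or 5 or marginal array 1 or 2 (adjusted p = 0.0888, 0.0733, 0.0579 and 0.0553), and without the 4 arrays of low correlation (-0.45, adjusted p = 0.128). It was also lost with quantile normalisation (adjusted p = 0.0779), array weights (0.0913) and no trend (0.119). Tef (0.65, adjusted p = 0.172), Bhlhe40 (0.39, adjusted p = 0.198) and Hlf (0.35, adjusted p = 0.348) did not pass, though the second Tef probe set did (1.07, adjusted p = 0.00511). None of the 8 genes had a diet change that passed the test of a difference between the runs (limma interaction, adjusted p = 0.3 to 0.824), where 15 probe sets did. The deficient minus adequate change was -1.74 ± 0.43 in the second run and 0.04 ± 0.41 in the first for Nfil3, and -0.88 ± 0.61 in the second and -2.37 ± 0.58 in the first for Noct.

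Other rhythmic genes differed between the runs too. Of 13 core clock genes, Per2 (2.20, adjusted p = 5.35e-07) and Nr1d2 (0.92, adjusted p = 0.00124) were higher in the second run and 4 were lower, led by Bmal1 (-1.10, adjusted p = 0.000409). Cyp7a1 (3.79, adjusted p = 1.41e-13), Tfrc (0.74), Klf9 (0.91) and Alas1 (0.61) were higher, and Insig2 (-1.21), Cdkn1a (-1.18), Cyp2a1 (-0.89) and Ces2c (-0.92) were lower. Further, 4 of 9 immediate early genes were higher, Egr1 (2.63), Fos (2.01), Jun (1.78) and Dusp1 (1.77), while Junb was lower (-1.04). Of 8 Kupffer markers 7 were lower. The log2 of their summed signals was 5.76 to 7.08 in the second run against 6.93 to 7.82 in the first. Also lower were 1 of 5 endothelial and 1 of 6 acinar markers, while 1 of 7 stellate markers was higher and 0 of 7 hepatocyte markers were called. The array median lay 10 to 22 times above the lowest signal in the second run, against 39.4 to 52.3 times in the first. With a common floor set for all arrays, the differences were 4.12 for Usp2 and 3.13 for Bhlhe41. The part of these markers was not tested.

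**Figure D4:**
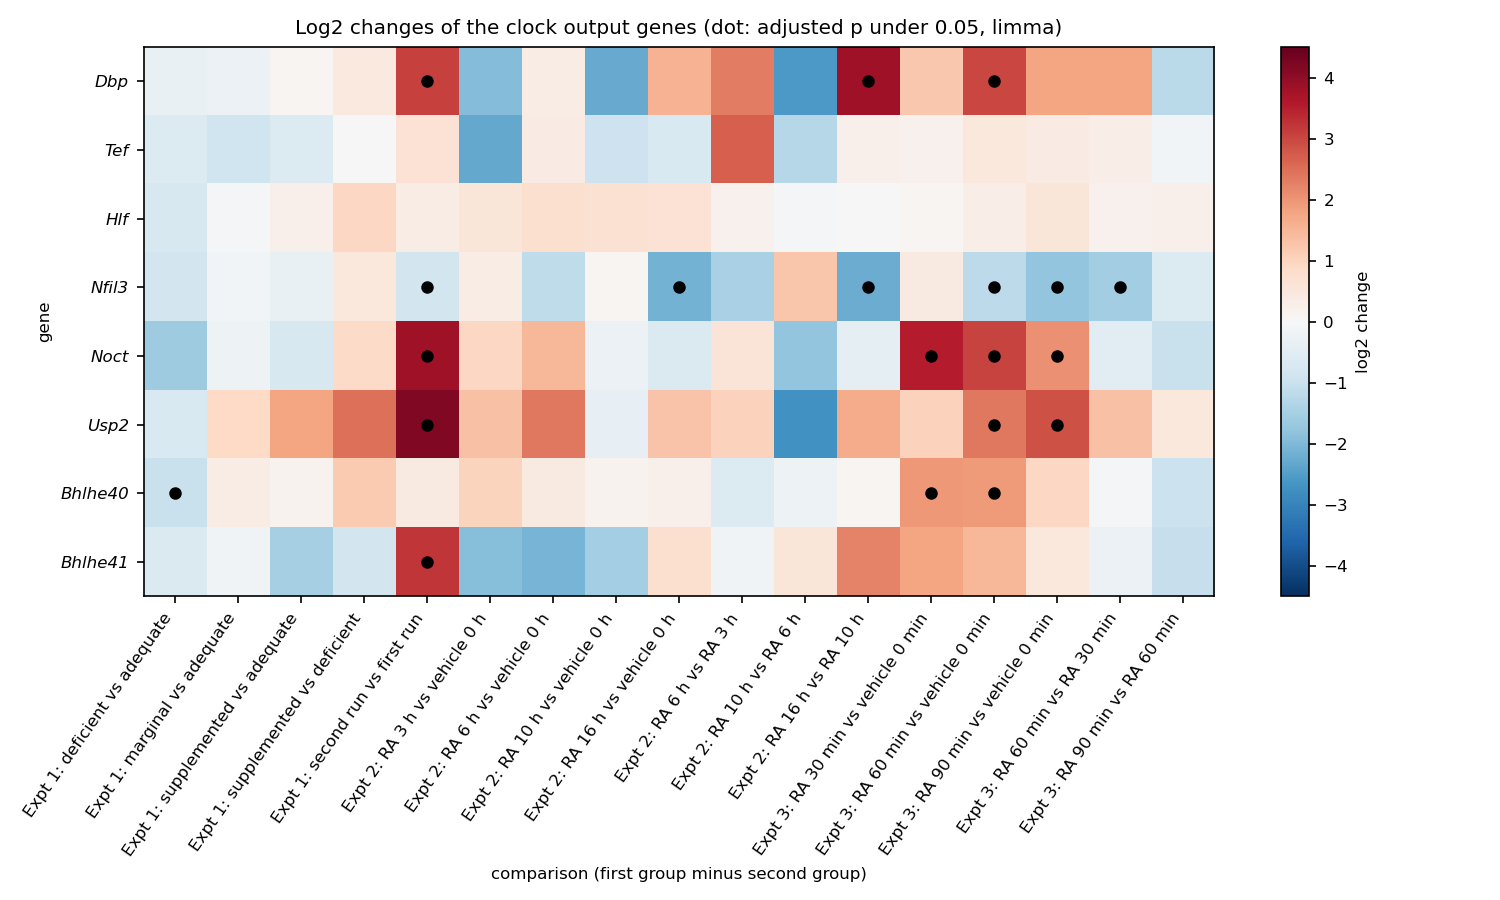
Heat map of the log2 change (colour, first-named group minus second) of each gene (vertical) in each pairwise comparison (horizontal); a dot marks an adjusted p under 0.05. Noct, Usp2 and Dbp are higher at 60 min after injection and in the second run, and Nfil3 is lower in both.

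Set side by side, the changes at 60 min after injection and between the runs, which share no arrays, were 3.03 and 3.81 for Noct, 2.37 and 4.16 for Usp2, 2.99 and 3.08 for Dbp, and -1.17 and -0.82 for Nfil3. Bhlhe40 was called in the first (1.90) and not in the second (0.39). Bhlhe41, which entered the run test through the second run alone, was called there (3.21) and not at 60 min (1.51). Across the 47 arrays, each centred on the mean of its experiment and run, Dbp and Nfil3 ran opposite (Pearson r = -0.51), while Noct ran with Usp2 (0.55) and Bhlhe40 (0.51). Bmal1 correlated with Dbp at -0.60 and with Nfil3 at 0.67. These values, and those that follow, describe arrays that share groups, normalisation and array quality, and carry no test.

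Over 11644 genes compared in this way, the profiles most like Dbp were Hsd17b2 (r = 0.81), Nr1d2 (0.73) and Nr1d1 (0.72). Those most like Nfil3 were Hebp1 (0.82), Rnf125 (0.80) and Chka (0.79). Noct ran closest to Coq10b (0.69), Klf15 (0.67) and Insig1 (0.64), and Usp2 to Klf15 (0.73), Per2 (0.69) and Spsb4 (0.67). For Bhlhe40 they were Ppp1r3b (0.65), Klf10 (0.63) and Errfi1 (0.61). Hlf ran with Cyp2c22 (0.65), Gpt2 (0.65) and Rnase4 (0.64), and Tef with Kiz (0.71), Klhl36 (0.70) and Tns2 (0.66). Bhlhe41 had the weakest likenesses, to Pla2g2d (0.49), Pparg (0.48) and Crhbp (0.47).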

How the data were processed

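The 8 members and all gene lists were chosen with earlier results of these data known. Per the submitters' processing notes the arrays were processed with GCOS (version not given in the sources used here). The deposited table holds log2 signals, centred by the authors on a median of 0 in each array; the log2 scale was read from the spike-in probe sets, and the centring method is not given. The analysis plan had assumed linear signals. After 57 control probe sets were removed, a probe set was tested if it exceeded the 40th percentile of its array on at least 2 arrays of the experiment, which left 27595, 28869 and 22763 in Expt 1, 2 and 3. A separate limma model per experiment (limma 3.58.1, R 4.3.3; group means, eBayes with a trend, in Expt 1 with the run of identifiers as a covariate) gave p-values, which were adjusted by Benjamini-Hochberg over all probe sets tested; called means an adjusted p under 0.05. Changes are the first-named group minus the second, with their SE. The share of all probe sets without overlap between groups was not counted for any comparison. The script was tested on simulated data. The number of arrays per group limits the precision. The run comparison, the common floor and the fit without arrays that stood apart were chosen after seeing the data.

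Named were all 8 members in each comparison and up to 4 called genes with the smallest adjusted p of each list (core clock, PAR bZIP targets, other rhythmic liver genes, glucocorticoid-induced, immediate early). Also named were 5 RA-responsive genes as a check of the treatment, and for each member the 3 genes with the highest Pearson r. Alternatives were quantile normalisation, no filter, no trend, array weights, a replicate block, averaging of a gene's probe sets, other treatments of the run, and each array left out. Gene symbols came from the platform annotation, in which 20826 probe sets other than controls had 1 symbol, 436 several and 9831 none.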

Additional observations from a re-analysis of the deposited data

Results flagged for a closer look

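Hlf in RA 10 h array 3 was 2.09, against 2.92 to 2.97 in the other 3 rats of that group, so that this gap made up 0.94 of the range of the 4 rats. Of 32 groups of 4 to 10 arrays looked at over the 8 genes, this was 1 such array, where chance gives about 1 in 20.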

How the results depend on the processing

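Over the 8 genes, called changes kept their direction and call in 113 fits under other settings, lost the call in 39 and turned in 1; uncalled ones stayed so in 995 and passed in 8. Fitted without a trend, 0 genes were called in deficient against adequate livers, over the diets, at 16 h against vehicle or 10 h, over Expt 2, and at 30, 60 and 90 min and 60 against 30 min, and 1 over Expt 3; the cause was not tested for this or the settings that follow. Deficient against adequate livers gave 0 with quantile normalisation, array weights, no run covariate, the run as a random block, each run alone and without arrays that stood apart. The F test over diets gave 0 with no run covariate, each run alone and without those arrays; a run alone holds fewer arrays. Quantile normalisation gave 2 at 16 h (Hlf added, 1.22) and 1 at 10 h against 6 h, and ended the Nfil3 calls at 60 min and between the runs; no filter ended the first, array weights and no trend the second. Array weights gave 1 at 6 h, 1 at 10 h and 2 at 10 h against 6 h. With both divergent arrays of the 16 h group removed, which leaves 1 array there, assumed to vary like the other groups, 0 were called at 16 h against vehicle or 10 h, and 1 at 10 h against 6 h. Averaging a gene's probe sets left 3 at 60 min and ended the Usp2 call at 90 min. Same-numbered arrays did not deviate together (0 of 22, 30 and 15 pairs had r over 0.1); with replicate number as a block the counts were 0 for deficient against adequate, 3 at 60 min and 2 between the runs, whose numbers nearly coincide with the runs, and Nfil3 turned to 0.80 (adjusted p = 0.858). With 1 array left out, the counts ranged from 0 to 2 for deficient against adequate and over the diets, 4 to 5 between the runs, 0 to 1 at 6 h, at 16 h and at 10 h against 6 h, 1 to 2 at 16 h against 10 h, 1 to 2 at 30 min, 0 to 5 at 60 min, 2 to 3 at 90 min, 2 to 4 over Expt 2, 0 to 1 at 60 against 30 min and 4 to 5 over Expt 3. The small groups limit the precision of all changes.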
